A study of Mus musculus with 7 samples.

Results

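Respiratory complex I (NADH dehydrogenase) was examined through the nuclear genes of its subunits in LSK cells of mouse bone marrow, sorted after deletion of the kinase gene Lkb1 (Stk11). LSK cells are defined by Sca-1 and c-Kit on their surface and by the absence of lineage markers, a gate that holds blood stem cells and early progenitors. Members were taken by name from the deposited array table: all genes on probe sets annotated with 1 symbol that begins with Ndufa, Ndufb, Ndufc, Ndufs or Ndufv, without the assembly factors named Ndufaf, each read from its brightest probe set over the 7 arrays. This gave 34 of 12393 genes, of which 33 passed a filter on dim probe sets and were tested among 8077 genes. One of the 34, Ndufa4, is now known as a subunit of cytochrome c oxidase and not of complex I, so counts below are for the other 33 genes, 32 of them tested, and Ndufa4 is given by itself.

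Lkb1 KO samples (4, numbered 4 to 7) came from Lkb1 L/L rosa26CreERT2 mice, in which the Rosa26 locus drives a Cre recombinase that tamoxifen activates. Lkb1 WT samples (3, numbered 5 to 7) came from Lkb1 L/L mice that lack this Cre. All mice were C57BL/Ka-CD45.2:Thy-1.1, both groups received tamoxifen for 5 days, and cells were sorted 1 day after its end, 15000 to 20000 per sample. About 10 ng of total RNA per sample was amplified, labelled with biotin and hybridised to 1 array, and ages are not given. KO and WT therefore differed in Cre as well as in Lkb1, and the labels do not state that each sample was a separate animal. The p-values below therefore rest on the variation among 7 samples, and part of it may be technical.

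Complex I is the largest enzyme of the respiratory chain. Its peripheral arm reaches into the mitochondrial matrix, takes electrons from NADH at a flavin (the N module) and passes them along iron-sulfur clusters to coenzyme Q (the Q module). Its membrane arm, built on a core encoded in the mitochondrial genome, uses the energy released to pump protons. Core subunits carry out the reaction, and accessory subunits surround them and are needed for assembly or stability. Blood stem cells are known for relying little on respiration while quiescent, and Lkb1 activates AMPK, a kinase that senses cellular energy.

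Values are log2(signal + 16) after quantile normalization over the 7 arrays, and a difference is always KO minus WT on that scale, relative to all genes on the array. The deposited signals were brighter in KO, with a trimmed mean of 360 to 426 against 229 to 341 in WT (lowest in WT 7), which shifted the median tested gene by 0.34 in the unscaled values. The ratio of 3' to 5' signal of Actb, a sign of RNA length, lay between 11.4 and 12.3 in KO, below the range of 12.6 to 13.1 in WT. Stk11 itself was 7.18, 6.98, 6.68 and 6.44 in KO 4 to 7, against 7.63, 7.16 and 7.35 in WT 5 to 7. KO 4 lay just above the lowest WT value, and the difference of -0.56 ± 0.19 (SE) had an adjusted p of 0.117 in limma. Whether this probe set lies in the deleted part is not given in the sources used here.

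One subunit gene of complex I rose in KO and none fell. Ndufc1, a small subunit of the membrane arm, was 1.48-fold higher. Of the 32 genes tested, 1 passed in the upward direction, where 2.48% of all genes tested did, and 0 passed in the downward direction, where 2.96% did (limma, Benjamini-Hochberg adjusted p under 0.05). At an unadjusted p under 0.05 in the same limma fit, 10 were higher and 0 lower, against 11.7% and 13.6% of all genes. At the adjusted threshold, the share of called members was thus close to that of all genes.

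Most of the other subunit genes lay slightly above their WT mean. The difference was above 0 for 29 of 32 genes, against 47.6% of all genes tested, and the 3 below 0 were Ndufa6, Ndufb11 and Ndufs7. Its median over the members was 0.18 with a range from -0.25 to 0.56, and the median over all genes tested was -0.02. With the Actb 3' to 5' ratio, which separated the groups, as a covariate, the median of the members was 0.085 and 21 of 32 lay above 0. It was 0.30 with median centring and 0.57 in the unscaled signals, where the medians of all genes were 0.08 and 0.34. All 4 KO values lay above all 3 WT values for 9 members (28.1%), where 11.4% of all genes did so, and below them for 0 members, where 12.7% of all genes did. Of the 32 genes, 26 were read from probe sets among the 2019 brightest of those tested. The median difference of all 2019 genes was -0.0042, and that of the 26 members was 0.19. In bulk samples, a difference in RNA per cell and a difference in the makeup of the sorted cells cannot be told apart.

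**Figure D1:**
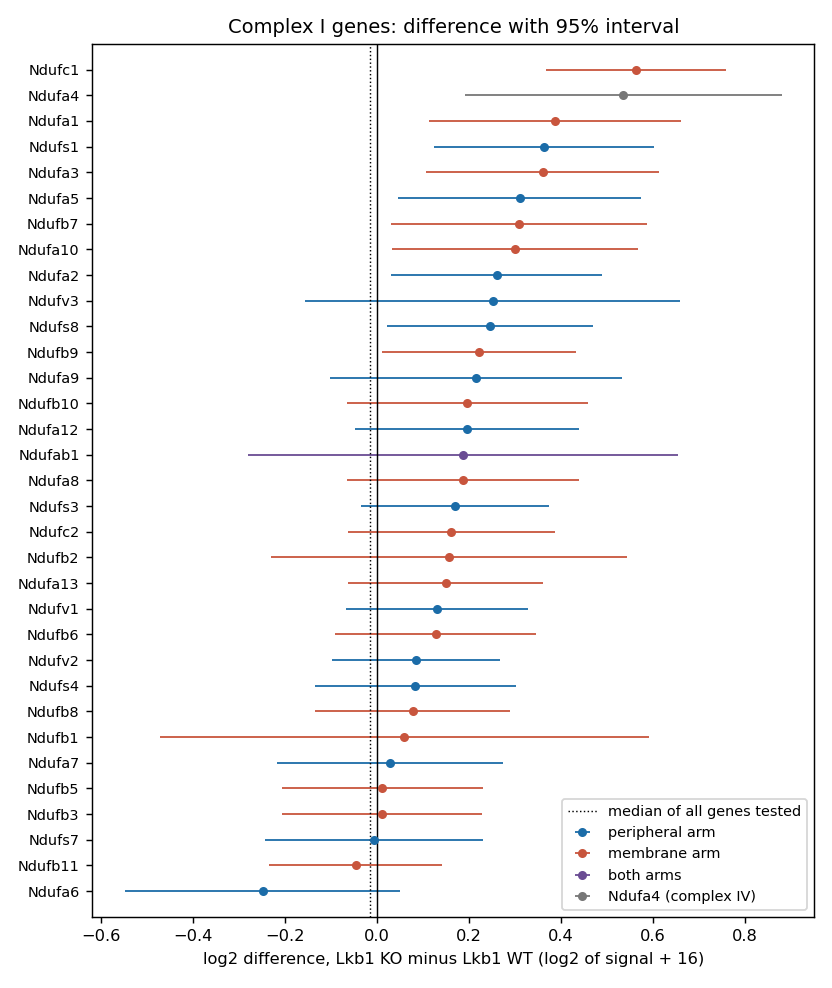
Difference of each of the 33 tested genes in log2 units (points, KO minus WT) with its 95% interval from limma (lines), coloured by the arm of complex I in which the subunit lies, with Ndufa4 in grey. The dotted line is the median of all genes tested at -0.02, and 30 of the 33 points lie to the right of 0, Ndufc1 with 0.56 farthest.

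Ndufc1 is a small single-span protein of the membrane arm and lies beside Ndufc2. Its values were 11.68, 11.69, 11.68 and 11.65 in KO 4 to 7, against 11.21, 11.11 and 11.01 in WT 5 to 7. The KO values lay close together (SD 0.015, n = 4), and the groups did not overlap. The difference was 0.56 ± 0.09 (SE) with a 95% interval of 0.37 to 0.76, an adjusted p of 0.0198 in limma, and an exact permutation p of 0.0286, the smallest that the 35 splits of 4 and 3 samples can give. A second probe set for Ndufc1, dimmer than the first, gave 0.62 ± 0.13 (SE) and an adjusted p of 0.0396 in a limma fit over all 13575 probe sets above the filter. The call was lost when KO 7, WT 6 or WT 7 was left out (adjusted p of 0.0607, 0.0510 and 0.0581 in limma), with differences of 0.57, 0.56 and 0.51. It was also lost with the Actb ratio as a covariate (0.60 ± 0.18, SE, adjusted p 0.488 in limma). That ratio separated the groups, and 0 of all genes tested passed in that fit, so this loss was not particular to Ndufc1.

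Promoter windows from RefSeq (build GRCm38.p6, 250 bases before to 50 after a start) were searched on both strands for motifs of factors known to act on respiratory genes. The search used GCGC, any 2 bases and GCGC for NRF1, CCGGAAG for the ETS factor GABPA, AAGATGGCG for YY1 and CACGTG, the E-box bound by Myc, and 31 of the 34 members had a window. The YY1 letters stood in the windows of 4 members (12.9%), against 1.64% of 27025 genes. These 4 stretches are shown because 1 belongs to the only called subunit gene, with the match in capitals, each on the gene's strand.
Ndufc1: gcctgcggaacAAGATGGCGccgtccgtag
Ndufa9: cattgtgggagAAGATGGCGgccgccgtcc
Ndufs4: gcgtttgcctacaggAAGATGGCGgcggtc
Ndufs7: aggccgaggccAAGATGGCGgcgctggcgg
They lie at chr3:51408915-51408944 (minus strand), chr6:126849097-126849126 (minus strand), chr13:114388045-114388074 (minus strand) and chr10:80249462-80249491 (plus strand). All 4 matches ran in the direction of the gene, downstream of the start, and began at positions 23 (Ndufc1), 30 (Ndufa9), 36 (Ndufs4) and 25 (Ndufs7), counted from 1 at the RefSeq start. The differences of these 4 genes were 0.56, 0.21, 0.08 and -0.01, so that the same letters stood in the windows of the gene that rose and of one with a difference near 0.

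NRF1 letters stood in the windows of 6 members (19.4%), against 7% of genes. Of these, 3 are shown, those of the member with the lowest difference, of one near the median, and of one with 2 starts that each hold the match.
Ndufa6: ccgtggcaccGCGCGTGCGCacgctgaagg
Ndufa8: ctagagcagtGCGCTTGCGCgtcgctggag
Ndufa5: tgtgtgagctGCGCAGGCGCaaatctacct
These stretches lie at chr15:82354249-82354278, chr2:36049349-36049378 and chr6:24527697-24527726, all on the minus strand. The other members with the NRF1 letters were Ndufab1, Ndufs5 and Ndufv2. The 5 tested members with the NRF1 letters had a median difference of 0.19 (range -0.25 to 0.31), and the 24 without them 0.16 (range -0.05 to 0.56). ETS letters were found for 4 members (12.9%, against 9.93% of genes), namely Ndufb6, Ndufb7, Ndufs3 and Ndufs8, with a median difference of 0.21 against 0.16 in the 25 without. The E-box was found for Ndufa7 and Ndufv1 (6.45%, against 8.09% of genes), with a median of 0.078 against 0.17 in the 27 without. For YY1 the median was 0.15 in the 4 members with the letters and 0.16 in the 25 without. Members whose windows held none of the 4 motifs included Ndufa1, Ndufa3 and Ndufa4. They also included, among others, Ndufb3, Ndufb5 and Ndufb11, with differences of 0.01, 0.01 and -0.05. Ndufs1, Ndufa2 and Ndufb9 had no entry. No member held more than 1 of the 4 motifs, and none of the motifs split the members into groups whose differences did not overlap.

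The N module is where NADH enters. It is built on the core subunits Ndufv1, which binds the flavin and oxidises NADH, Ndufv2 and Ndufs1, the largest subunit, both of which carry iron-sulfur clusters. In all 3, every KO value lay above every WT value, as for 11.4% of all genes tested, and none of the 3 passed the adjusted threshold.
Ndufs1 was 9.67, 9.70, 9.63 and 9.67 in KO 4 to 7, against 9.10, 9.38 and 9.44 in WT 5 to 7. KO samples lay close together, and WT 5 was lowest. The difference was 0.36 ± 0.10 (SE), with an adjusted p of 0.0774 in limma and an exact permutation p of 0.0286.
Ndufv1 was 11.20, 11.30, 11.11 and 11.18 in KO 4 to 7, against 11.06, 11.09 and 11.05 in WT 5 to 7, so that KO 6 and WT 6 nearly met. Its difference was 0.13 ± 0.09 (SE, adjusted p 0.388 in limma).
Ndufv2 was 13.19, 13.26, 13.20 and 13.24 in KO 4 to 7, against 13.15, 13.16 and 13.11 in WT 5 to 7. This gap between the groups was small, with a difference of 0.08 ± 0.08 (SE) and an adjusted p of 0.550 in limma.
Among the accessory subunits of this module, Ndufa2 was 11.99, 11.78, 11.84 and 12.06 in KO 4 to 7, against 11.73, 11.61 and 11.62 in WT 5 to 7, again with no overlap (0.26 ± 0.10, SE, adjusted p 0.155 in limma). Ndufs4, without which the module is not held stably, differed by 0.08 ± 0.10 (SE), and Ndufa12, another accessory subunit of the peripheral arm, by 0.20 ± 0.11 (SE). Ndufv3 split the KO samples, with 11.39 and 11.48 in KO 4 and KO 5 and 10.81 and 10.87 in KO 6 and KO 7, against 10.88 to 10.90 in WT. The last 2 KO values lay below every WT value, and its difference was 0.25 ± 0.18 (SE).

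The Q module passes electrons from the N module to coenzyme Q. Of its core subunits, Ndufs3, a structural subunit, was 10.34, 10.29, 10.32 and 10.41 in KO 4 to 7, against 10.19, 10.07 and 10.26 in WT 5 to 7. These groups did not overlap, and the difference was 0.17 ± 0.09 (SE, adjusted p 0.279 in limma, exact permutation p 0.0286).
Ndufs8, which holds 2 iron-sulfur clusters, was 12.89, 12.97, 12.81 and 12.94 in KO 4 to 7, against 12.81, 12.56 and 12.61 in WT 5 to 7. KO 6 and WT 5 shared nearly the same value, and the difference was 0.25 ± 0.10 (SE, adjusted p 0.165 in limma).
Ndufs7, which carries the last cluster before coenzyme Q, was 12.11, 11.88, 11.83 and 12.03 in KO 4 to 7, against 11.92, 11.91 and 12.07 in WT 5 to 7. The groups lay over each other, with a difference of -0.01 ± 0.10 (SE). Its sign depended on the scaling, with 0.08 after median centring.

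The other accessory subunits of the peripheral arm spanned differences from -0.25 to 0.31. Ndufa5, of the Q module, was 11.17, 11.22, 11.05 and 11.19 in KO 4 to 7, against 10.67, 11.08 and 10.79 in WT 5 to 7. WT 6 lay above KO 6 alone, and the difference was 0.31 ± 0.12 (SE, adjusted p 0.143 in limma).
Ndufa6, a protein of the LYR family that binds the acyl carrier protein, ran the other way. Its values were 10.80, 10.77, 10.89 and 11.25 in KO 4 to 7, against 11.22, 11.09 and 11.21 in WT 5 to 7. All KO samples but KO 7 lay below the 3 WT samples, and KO 7 lay above them. The difference was -0.25 ± 0.13 (SE, adjusted p 0.276 in limma, exact permutation p 0.171), and without KO 7 it was -0.36 (adjusted p 0.115 in limma). Its sign also changed with the scaling, since the deposited signals without normalization gave 0.16, below the shift of 0.34 in the median gene. Ndufa9, the nucleotide-binding subunit at the joint of the arms, differed by 0.21 ± 0.14 (SE), and Ndufa7 by 0.03 ± 0.11 (SE). Neither passed the test. Ndufab1, the mitochondrial acyl carrier protein found in both arms, had the widest spread in WT of the members tested, from 7.59 to 8.35, and differed by 0.19 ± 0.20 (SE).

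**Figure D2:**
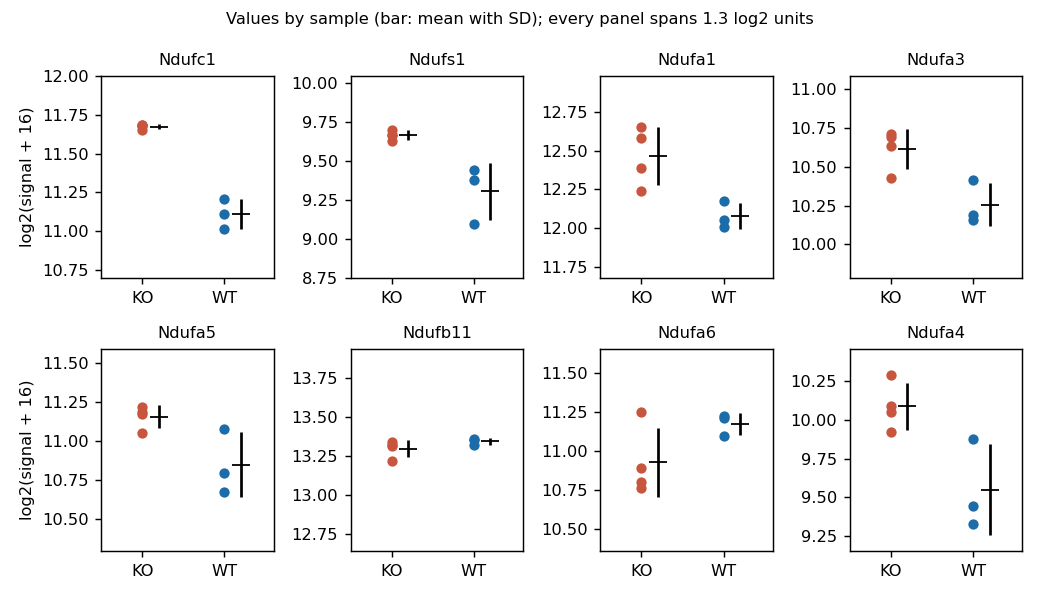
log2(signal + 16) of 8 genes in each sample (points), with the mean and SD of each group (bars), 4 KO and 3 WT samples per panel; every panel spans the same number of log2 units, from its own lower limit. Groups stand apart for Ndufc1, Ndufs1, Ndufa1, Ndufa3 and Ndufa4, share a range for Ndufa5 and Ndufb11, and KO 7 stands above the other KO samples of Ndufa6 at 11.25.

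In the membrane arm, 16 of 17 genes tested had a difference above 0, against 47.6% of all genes tested, with a median of 0.16. At an unadjusted p under 0.05 in limma, 6 were higher, where 11.7% of all genes were. Ndufc1 was the only one to pass the adjusted threshold. The highest after it was Ndufa1, an X-linked subunit needed to build the arm, with 12.24, 12.65, 12.39 and 12.58 in KO 4 to 7, against 12.05, 12.18 and 12.01 in WT 5 to 7. KO and WT did not overlap, although KO 4 and WT 6 lay close, and the difference was 0.39 ± 0.12 (SE, adjusted p 0.0919 in limma, exact permutation p 0.0571).
Ndufa3, a small subunit of the same region, was 10.43, 10.71, 10.69 and 10.63 in KO 4 to 7, against 10.19, 10.41 and 10.16 in WT 5 to 7. The lowest KO value (KO 4) was just above the highest WT value (WT 6), and the difference was 0.36 ± 0.11 (SE, adjusted p 0.0906 in limma).
Ndufa10, which resembles a nucleoside kinase, was 10.76, 10.79, 10.98 and 11.03 in KO 4 to 7, against 10.76, 10.57 and 10.43 in WT 5 to 7. KO 4 and WT 5 had the same value to 2 decimals, and the difference was 0.30 ± 0.12 (SE, adjusted p 0.157 in limma). Ndufa8, on the side of the intermembrane space, and Ndufa13 (also known as GRIM-19) differed by 0.19 ± 0.11 and 0.15 ± 0.09 (SE), with overlapping groups.

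The 10 Ndufb genes, all of the membrane arm, had a median difference of 0.10, and 0 of them passed the adjusted threshold in either direction (limma; 2 were higher at an unadjusted p under 0.05, where 11.7% of all genes were). Ndufb9, another LYR protein, was 12.52, 12.58, 12.39 and 12.62 in KO 4 to 7, against 12.36, 12.25 and 12.31 in WT 5 to 7. It was the only Ndufb gene without overlap, by a narrow gap between KO 6 and WT 5, and differed by 0.22 ± 0.09 (SE, adjusted p 0.180 in limma).
Ndufb7, which faces the intermembrane space, was 12.75, 12.79, 12.42 and 12.75 in KO 4 to 7, against 12.52, 12.25 and 12.34 in WT 5 to 7. KO 6 alone fell among the WT values, and the difference was 0.31 ± 0.12 (SE, adjusted p 0.160 in limma).
The other 8 Ndufb genes ranged from -0.05 to 0.20, with Ndufb10 at 0.20, Ndufb2 at 0.16, Ndufb6 at 0.13 and Ndufb8 at 0.077. Ndufb3, Ndufb5 and Ndufb11 were those nearest to 0, at 0.01, 0.01 and -0.05. Ndufb11 is X-linked like Ndufa1, and its values were 13.22, 13.32, 13.34 and 13.31 in KO 4 to 7, against 13.36, 13.32 and 13.35 in WT 5 to 7. Its 95% interval of -0.23 to 0.14 lay below the difference of 0.39 in Ndufa1, but overlapped the interval of Ndufa1, from 0.11 to 0.66. The difference between the genes was not tested. The sign of Ndufb11 turned in the unscaled signals, to 0.14. Ndufb1 was measured at low mean signals of 78.5 in KO and 59.7 in WT, and its interval was the widest of the members tested, from -0.47 to 0.59.

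Ndufc2, the partner of Ndufc1, was 12.51, 12.56, 12.53 and 12.50 in KO 4 to 7, against 12.20, 12.38 and 12.51 in WT 5 to 7. WT 7 lay within the KO values, and the difference was 0.16 ± 0.10 (SE, adjusted p 0.345 in limma). Ndufs5, a subunit of the intermembrane space, did not pass the filter: its mean signals were 39.1 in KO and 23.4 in WT, and it exceeded a background of 13.6 signal units on 6 of 7 arrays. That background is the 95th percentile of control probe sets whose transcripts were absent from the samples.

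Core and accessory subunits had similar medians. It was 0.15 over the 6 core genes, of which 4 had groups without overlap, and 0.19 over 26 accessory genes, of which 5 did, where 11.4% of all genes had all KO values above all WT values. By arm, the median was 0.18 over the 14 genes of the peripheral arm and 0.16 over the 17 of the membrane arm. These shares rest on few genes and were not tested against each other.

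Ndufa4, once counted as a complex I subunit and later found in cytochrome c oxidase, was 10.05, 10.29, 9.92 and 10.09 in KO 4 to 7, against 9.33, 9.88 and 9.45 in WT 5 to 7. The groups did not overlap, although KO 6 was close to WT 6. Its difference of 0.53 ± 0.15 (SE) was similar to that of Ndufc1 with a wider error, and did not pass (adjusted p 0.0729 in limma, exact permutation p 0.0286). It passed in 5 of the alternative settings, with an adjusted p of 0.0444 in limma with a pseudocount of 64, for example.

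Across samples, the shift of the set was not equal. Taking each gene's value minus its WT mean, the median over the 32 genes was 0.17 in KO 4, 0.15 in KO 5, 0.06 in KO 6 and 0.26 in KO 7. In WT it was 0.01 in WT 5, 0.01 in WT 6 and -0.03 in WT 7. KO 6 was thus the KO sample nearest to WT, and still lay above each WT median. KO 5 held the highest of the 7 values for 13 genes and KO 7 for 12, while KO 6 held it for 0. WT 7 held the lowest value for 12 genes and WT 6 for 9. Over all genes tested, the same medians lay between -0.02 and 0.01 in every sample. In the deposited signals without normalization they were 0.67, 0.60, 0.37 and 0.56 over the members and 0.50, 0.39, 0.27 and 0.25 over all genes in KO 4 to 7. The difference between members and all genes in a sample was therefore largest in KO 7 on both scales.

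**Figure D3:**
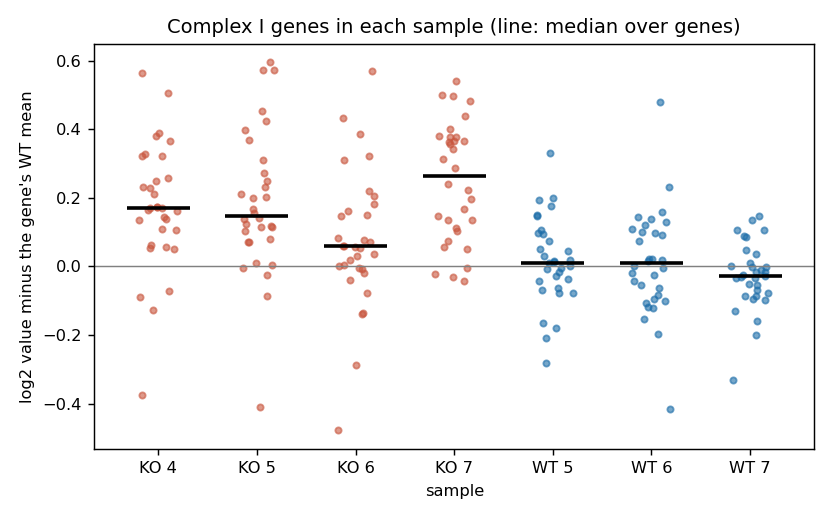
Value of each of the 32 complex I genes minus its mean over the 3 WT samples, in log2 units, for each sample (points, 1 per gene), with the median (line). The medians of KO 4 to 7 are 0.17, 0.15, 0.06 and 0.26, all above those of the WT samples, and the points of every sample spread over both sides of 0.

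Several subunit genes were read by more than 1 probe set, which gives a view of the same RNA that the choice of the brightest did not use. In 19 genes, 34 other probe sets with 1 symbol were present, and 32 of them passed the filter. Their difference had the sign of the gene's brightest probe set in 22 and the opposite sign in 10, and their median was 0.15, against 0.16 for the brightest of the same 19 genes. In a limma fit over all 13575 probe sets above the filter, in which 2.12% of all probe sets were called higher and 1.96% lower, 4 of these 32 passed in the upward direction and 0 in the downward direction. They belonged to Ndufa5 (0.73 ± 0.09, SE, adjusted p 0.0160), Ndufa10 (0.71 ± 0.13, adjusted p 0.0332), Ndufc2 (0.58 ± 0.11, adjusted p 0.0367) and Ndufc1.
For Ndufa5 the dimmer probe set had deposited signals of 916, 821, 684 and 731 in KO 4 to 7, against 393, 358 and 290 in WT 5 to 7. The groups stood well apart there, whereas its brightest probe set showed 0.31 with overlap. Ndufc2 likewise gave 0.16 from its brightest probe set and 0.58 from the other. The probe sets of these genes thus gave different sizes with the same sign.
Signs were mixed for Ndufs8, whose 6 probe sets ran from -0.31 to 0.49, for Ndufs4 (-0.20, 0.08 and 0.32) and for Ndufab1 (-0.27, 0.19 and 0.28). Ndufb9 gave 0.22 from the brightest and -0.18 from another, with 0 of these passing the adjusted threshold in the probe set fit. Signs also differed among the probe sets of Ndufa7, Ndufb2, Ndufb6, Ndufb11 and Ndufs7. Of the 32 other probe sets, 9 had all KO values above all WT values and 2 had all below. Of all genes tested, 11.4% and 12.7% did so. The 2 were of Ndufs8 (-0.31) and Ndufb11 (-0.10, with mean signals of 9588 in KO and 8817 in WT). Which transcripts each probe set reads was not tested.

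**Figure D4:**
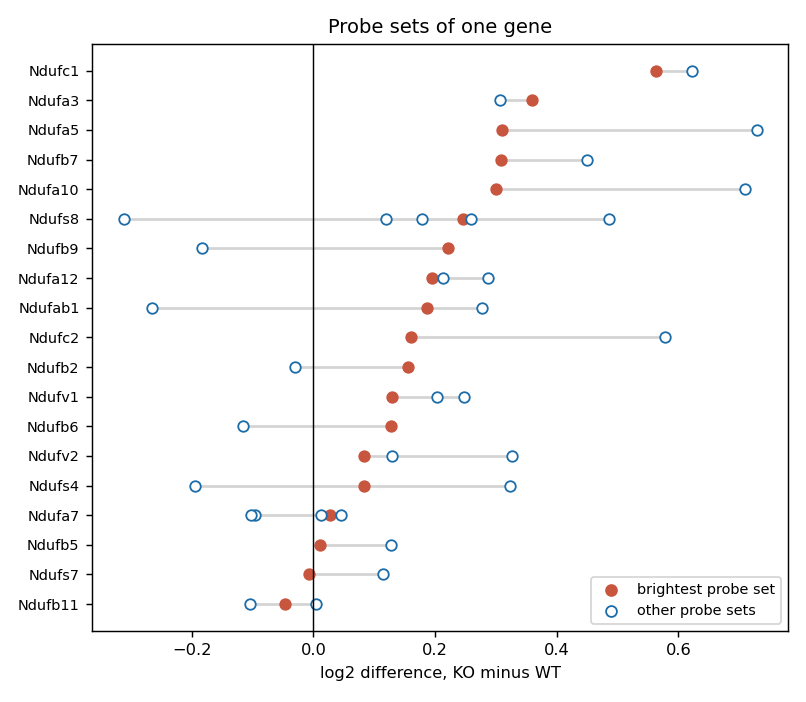
Difference in log2 units (KO minus WT) of the brightest probe set (filled) and of the other probe sets above the filter (open) for the 19 genes with more than 1. Open points lie to the right of 0 for Ndufc1, Ndufa3, Ndufa5, Ndufb7, Ndufa10 and Ndufc2 among others, and run from -0.31 to 0.49 for Ndufs8.

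Other probe sets were annotated with several symbols, in most cases a subunit gene with a near copy or a pseudogene, and their signal cannot be assigned to 1 gene. Ndufs6, Ndufb4 and Ndufa11 were read by such probe sets alone. Of the shared probe sets, 7 passed the filter, and in all 7 the difference was above 0. The probe set shared by Ndufs6 and its copy Ndufs6b had signals of 1656, 1582, 1379 and 1418 in KO 4 to 7, against 964, 790 and 536 in WT 5 to 7, with no overlap. It passed in the probe set fit (0.57 ± 0.09, SE, adjusted p 0.0273 in limma). Ndufs6 is a zinc-binding accessory subunit of the peripheral arm. The probe set shared by Ndufs5 and a pseudogene differed by 0.35 ± 0.09 (SE, adjusted p 0.0698), and those shared by Ndufb4 and Ndufa11 with their copies by 0.08 to 0.27. Of the 7 subunits encoded by mitochondrial DNA, 0 were tested.

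Genes that build or feed complex I were examined as lists. Of 19 assembly factors, 13 were tested, and 0 passed in either direction in limma, where 0 also had an unadjusted p under 0.05. Their median was 0.13, and 12 of 13 were above 0, against 47.6% of all genes tested. The lowest p was that of Tmem186, a factor for the membrane arm (0.27 ± 0.12, SE, adjusted p 0.201 in limma), followed by Foxred1 at 0.22 and Ndufaf5, which modifies Ndufs7, at 0.21.
Enzymes that supply NADH in the matrix were listed together with those of the malate-aspartate shuttle, with a median of 0.12 over 16 tested. Where 2.48% of all genes tested were called higher and 2.96% lower, 3 of these 16 were higher and 0 lower. These were Dld, the lipoamide dehydrogenase shared by the pyruvate and oxoglutarate complexes (8.80 ± 0.03, SD, n = 4, in KO and 8.10 in WT, difference 0.70 ± 0.10, SE, adjusted p 0.0168 in limma), Dlst of the oxoglutarate complex (0.66, adjusted p 0.0402) and Got2 of the malate-aspartate shuttle (0.56, adjusted p 0.0304).
On the side of coenzyme Q, which accepts the electrons, 2 synthesis genes rose and 1 fell of 9 tested. Coq7 rose by 0.85 (adjusted p 0.0373) and Coq3 by 0.48 (adjusted p 0.0336), while Coq8a, a kinase-like protein of the same pathway, was at -0.44 (adjusted p 0.0405 in limma). Of 10 genes for other enzymes that hand electrons to coenzyme Q, Chdh, choline dehydrogenase, rose by 1.05 (adjusted p 0.0245 in limma) and the others did not pass. Genes for iron-sulfur cluster assembly, 8 of 16 tested, gave 0 higher and 0 lower in limma (2 and 1 at an unadjusted p under 0.05), with a median of 0.05.

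In the rest of the respiratory chain, medians ranged from 0.07 to 0.24. Complex II had 0.23 over 4 genes, of which 4 lay above 0, and complex III 0.07 over 9, of which 5 did. Complex IV had 0.12 over 9, of which 8 lay above 0, and ATP synthase 0.24 over 18, of which 17 did. Of all genes tested, 47.6% lay above 0, 2.48% were called higher and 2.96% lower. Calls were 1 gene of complex III, Uqcrq, a small subunit (0.65 ± 0.11, SE, adjusted p 0.0230 in limma), and 1 of ATP synthase, Atp5k, a membrane subunit (0.81 ± 0.16, SE, adjusted p 0.0283 in limma). None fell in these 4 lists, although Uqcrh had -0.35 (adjusted p 0.234 in limma). All KO values lay above all WT values for 25% of complex II, 33.3% of complex III, 44.4% of complex IV and 50% of ATP synthase. That share was 28.1% in complex I and 11.4% over all genes tested. At an unadjusted p under 0.05 in limma, 50%, 33.3%, 11.1% and 50% of these 4 lists were higher. There it was 31.2% in complex I and 11.7% over all genes. The median of complex I lay within the range of the other complexes, and no difference between lists was tested.

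**Figure D5:**
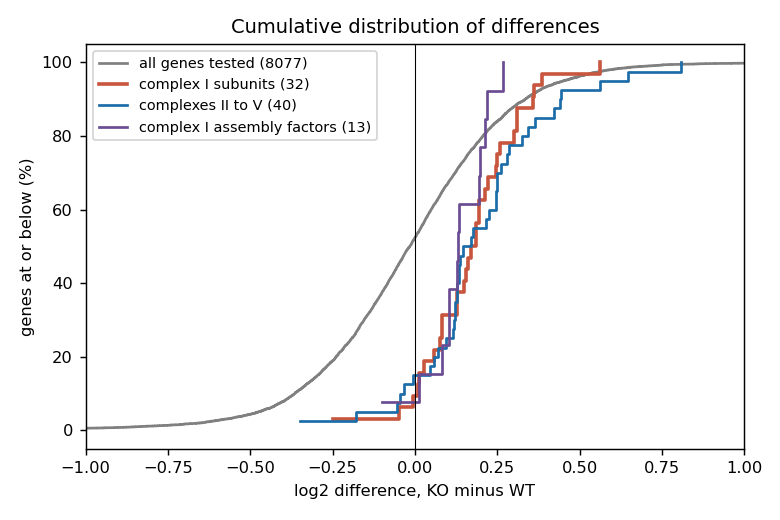
Cumulative share of genes (percent) against the difference in log2 units (KO minus WT) for all 8077 genes tested, the 32 complex I subunits, the 40 genes of complexes II to V and the 13 assembly factors, with the axis ending at 1 in either direction. The curves of the 3 respiratory lists lie to the right of that of all genes up to about 0.2, and those of complex I and the other complexes lie close together.

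Nuclear regulators of respiratory genes gave 0 higher and 0 lower of 12 tested in limma (1 and 1 at an unadjusted p under 0.05), with a median of -0.03. Nrf1 and Yy1, whose motifs were searched above, differed by -0.24 ± 0.15 and 0.15 ± 0.09 (SE). Gabpa, which binds the ETS motif, was at -0.02 ± 0.13 (SE). Of the coactivators, Ppargc1a was at -0.89 ± 0.38 (SE, adjusted p 0.189 in limma) and Pprc1 at 0.41 ± 0.13 (SE, adjusted p 0.103 in limma). Myc, a known inducer of mitochondrial genes, was at 0.28 ± 0.18 (SE). The levels of these RNAs do not measure the activity of the proteins.

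Markers of cell state and of other cells moved between the groups as well. For comparison, 2.48% of all genes tested were called higher and 2.96% lower in limma. All KO values lay above all WT values for 11.4% of all genes, and below them for 12.7%. Of 9 proliferation genes, 5 were called higher and 0 lower, namely Mcm5 (0.87), Birc5 (0.69), Mcm2 (0.52), Pcna (0.42) and Cdk1 (0.38), and their summed normalized signal of 27494 to 29911 in KO lay above the 22022 to 23066 of WT. Of 13 granulocyte and monocyte markers, 7 were called lower: Lcn2 (-2.26), Ltf (-2.24), Ngp (-1.90), Camp (-1.83), S100a9 (-1.75), S100a8 (-1.10) and Lyz2 (-0.81). Ctsg, a protease of primary granules, was called higher (0.57), and Csf1r (0.75), Elane (0.41), Itgam (0.40) and Mpo (0.16) had all KO values above all WT values without passing. Genes of this list thus differed in both directions, and its summed signal of 39932 to 46670 in KO lay below the 51828 to 63080 of WT. All 13 were above background on all 7 arrays. Among the markers of the gate, Kit fell relative to all genes (-0.43, adjusted p 0.0465 in limma), and Procr and Flt3 were at -0.36 and -0.28. Their mean deposited signals were not clearly lower in KO, with 1525 in KO and 1534 in WT for Kit. They were 658 and 632 for Procr and 3485 and 3284 for Flt3. Ly6a was not on a probe set with 1 symbol. Erythroid markers gave 1 higher (Hba-a2, 0.43) and 1 lower (Ermap, -1.21) of 5 tested. All KO values lay below all WT values for 4 of these 5, Ermap, Car1 (-1.05), Klf1 (-0.46) and Epor (-0.23). In mean deposited signal Ermap, Car1 and Klf1 were also lower in KO, and Epor was not (64.3 in KO, 63.0 in WT). The summed signal of the list was 681 to 861 in KO, below the 1016 to 1279 of WT. Megakaryocyte and platelet markers gave 0 higher and 1 lower (Plek, -0.78) of 6, and lymphoid markers 1 higher (Nkg7, 0.58) and 0 lower of 4. For 4 of the 6 megakaryocyte and platelet markers, all KO values lay below all WT values. Their summed signal was 2891 to 4466 in KO, below the 5321 to 5652 of WT, while the lymphoid sums overlapped. The T cell genes Cd3e and Cd3g and the B cell gene Cd79a were above background on 0 arrays, while Cd79b, Ms4a1, Dntt and Il7r were above it on all 7 and Rag1 on 5. The part of proliferation and of mature cells in the values of the complex I genes was not tested. For RNA length, the Actb ratio was fitted as a covariate (median of the members 0.085). This ratio separated the groups, so RNA length and genotype cannot be told apart.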

How the data were processed

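The intensities deposited by the authors are linear signals, 1 for each probe set on each array. MAS5 is the tool in the submitters' processing notes, and its settings were not among the sources used here. The array design named in the labels has more probe sets than the table holds. Names came from the platform annotation for probe sets, and lists through RefSeq symbols of GRCm38.p6. Intensities were taken as log2(signal + 16) and quantile normalized. Genes whose mean lay above the 40th percentile entered a linear model of genotype in limma (version 3.58.1, R 4.3.3), moderated by eBayes on 5 residual degrees of freedom. Its p-values were adjusted by Benjamini-Hochberg across all 8077 genes, and 0.05 was the threshold. Exact permutation tests, two-sided, ran over all 35 assignments. A fold on this scale understates the change of dim genes. Named genes are all members, and from each list those past the threshold and up to 3 of lowest p, with others named for their role after their values were seen. The members and lists were chosen with earlier results of these data known. On simulated data, limma recovered 78 of 100 genes changed by 1 log2 unit and 29 of 100 changed by 0.5, with 7 false among 114 calls. Promoter stretches were limited to the bases around a motif. The number of arrays limits the precision.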

Additional observations from a re-analysis of the deposited data

Results flagged for a closer look

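Among 64 sets of 4 KO values checked, for the genes described above, 3 held a sample that stood apart by Dixon's criterion, which chance meets in about 5% of such sets. Ndufb7 was 12.42 in KO 6, lowest, with the nearest other KO value at 12.75. Ndufb2 was 9.99 in KO 7, highest, with the nearest at 9.56. Atp5o, a subunit of the ATP synthase stalk, was 9.90 in KO 6, lowest, with the nearest at 10.17. Both low values belonged to KO 6, the KO sample with the smallest median shift of the complex I genes.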

How the results depend on the processing

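The count of complex I genes called higher (1 above) was 13 in the scaling as deposited, 7 with an intensity trend in the prior variance, 4 when each probe set was tested (an alternative added after the data were seen), 3 with median centring, 3 with the mean of a gene's probe sets, 2 with a filter at the 60th percentile, and 0 with the replicate number as a block or the Actb covariate. It was 0 to 1 when single samples were left out. The counts over all genes in the same settings are given below. The count called lower was 0 under every alternative run. At an unadjusted p under 0.05 in limma, the count higher (10 above) was 25 as deposited and 16 with median centring. It was 5 with the replicate block, 1 with the Actb covariate, and 4 to 9 with single samples left out. All genes below this p in either direction (2046 in the main fit, of which 949 were higher) were 2957, 2186, 1704, 712 and 1657 to 1903 in these settings. These totals were not split by direction, so they do not compare directly with the counts of members higher. The median of 0.18 was 0.57 as deposited, where the median of all genes was 0.34, 0.30 with median centring (all genes 0.08) and 0.085 with the Actb covariate, and 0.14 to 0.23 with single samples left out. Over all genes tested, the counts higher and lower (200 and 239 of 8077) were 326 and 374 with a pseudocount of 64. They were 1372 and 43 as deposited, 545 and 166 with median centring, and 27 and 47 of 12393 with no filter. With the 60th percentile filter they were 357 and 358 of 5890. They were 444 and 442 with the intensity trend, 182 and 197 with the mean of probe sets, and 0 and 0 with the Actb covariate. When each probe set was tested, 288 of 13575 probe sets were higher and 266 lower. With single samples left out, the counts over genes were 8 to 76 and 35 to 119. Ndufc1 passed in 16 of 21 alternatives and kept its direction in all 21, although leaving out KO 4 and the 6 samples without a block are 1 and the same fit. The labels do not pair samples. The deviations of same-numbered samples correlated at 0.03, 0.10 and 0.05 for numbers 5, 6 and 7. WT 6 and WT 7 correlated best with the KO sample of their own number, and WT 5 with KO 4 (0.07). With the replicate block, on these 6 samples, 0 genes were called higher and 1 lower, against 51 and 90 in the same samples without the block, and Ndufc1 had an adjusted p of 0.104 in limma. The causes of these changes were not tested.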
